A study of Mus musculus with 8 samples.

Results

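Alcohol, aldehyde and retinol dehydrogenases were compared between tumor and small intestine of Apc mutant mice. The naming rule took every gene whose symbol begins with Adh, Aldh, Rdh or Dhrs followed by a digit. Aldh18a1, an enzyme of proline synthesis, and the pseudogenes Adh6-ps1 and Rdh18-ps match by name and were left out. The choice gave 51 of the 43629 genes in the count table, namely 6 Adh, 20 Aldh, 14 Rdh and 11 Dhrs genes. Of these, 50 are annotated as protein-coding and 1, Dhrs13os, is an antisense RNA.

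RNA with poly(A) tails was sequenced from 4 tumor samples and 4 small intestine samples. Both tissues came from mice with a mutated Apc gene, a tumor suppressor of the Wnt pathway, on a C57B6/129 background, and all 8 samples are labelled as untreated controls. The small intestine is therefore tissue of the same mutant genotype and not of wild-type mice, and the labels give no Apc allele, age or sex. The series title names high-fructose corn syrup, a treatment that none of these 8 samples is labelled with. The labels do not say whether the 4 libraries of a tissue are 4 animals. The p-values below therefore set the tissue difference against the spread between these libraries, and that spread may be technical.

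Alcohol and retinol dehydrogenases oxidise alcohols to aldehydes, and aldehyde dehydrogenases oxidise the aldehydes to acids. In the absorptive cells of the intestine, carotene is cleaved to retinal, retinal is reduced to retinol and retinol is esterified for transport, while retinal dehydrogenases turn part of the retinal into retinoic acid, the ligand of nuclear retinoic acid receptors. The same families clear ethanol, acetaldehyde, formaldehyde and fatty aldehydes and carry out steps of amino acid breakdown.

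More of these dehydrogenases were lower in tumor than higher, among them Aldh1b1, Dhrs11, Aldh1a1 and Aldh9a1, the 4 members with the highest FPKM (the authors' values per length of gene) in small intestine. Of members with counts in both tissues, Rdh7, Rdh16f2, Dhrs11, Aldh1a1 and Aldh1a7 fell the most, with log2 fold changes of -9.05 to -5.04, and Dhrs9, Aldh1a3, Aldh1a2, Rdh1 and Rdh10 rose the most, with 4.49 to 3.13. Within the ALDH1A genes and within the pair of mitochondrial acetaldehyde enzymes, the most abundant member in tumor was a different gene from the most abundant member in small intestine. Of the 42 members with enough reads to be tested, 13 were higher in tumor, 25 were lower and 4 passed in neither direction (edgeR quasi-likelihood test, Benjamini-Hochberg adjusted p under 0.05 over 17029 genes). Over all genes tested, 38.9% were called higher and 35.4% lower, 74.3% in all. Of those called, 8 higher and 22 lower members had an estimated difference of at least 2-fold, against 27.9% and 22.8% of all genes tested. The median log2 fold change was -1.27 over the tested members and 0.07 over all genes tested, and the members' median is the same with Adh4, which had no count in tumor, set at its bound. The ranges of the tissues did not overlap for 37 members, 13 of them higher and 24 lower in tumor. Of all genes tested, 70.5% had ranges that did not overlap, 37.5% higher and 33.0% lower. In bulk tissue, fewer cells of a type and less RNA per cell cannot be told apart.

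Library totals ran from 53856561 to 67371180 counts in tumor and from 62347648 to 84433335 counts in small intestine. Levels are given as CPM, read counts scaled to a common library size, with TMM, an edgeR method that sets the bulk of genes equal between libraries, and the mean scaling factor was 1.35 in tumor and 0.742 in small intestine. Scaling by library totals alone moves the median log2 fold change of all genes up by 0.86 and calls 15 members higher, 21 lower and 6 in neither direction, against 62.0% and 17.6% of all genes. It turns the direction of Aldh2, Dhrs1, Rdh11 and Rdh12, and these 4 genes have no direction that holds under both scalings. Levels of different genes are compared only in FPKM. The remaining 9 members, among them Aldh8a1, Rdh8, Rdh19 and Dhrs2, had at most 30 counts in any library and were not tested. Rdh16f1 is listed at 0 counts in all 8 libraries. It shares 2302 exon bases with Rdh9 and 464 with Rdh1 on the same strand, and the authors' FPKM gives it 0.320 in tumor library 1 and 0.248 in small intestine library 4, so the 0 sets no limit on its level.

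**Figure D1:**
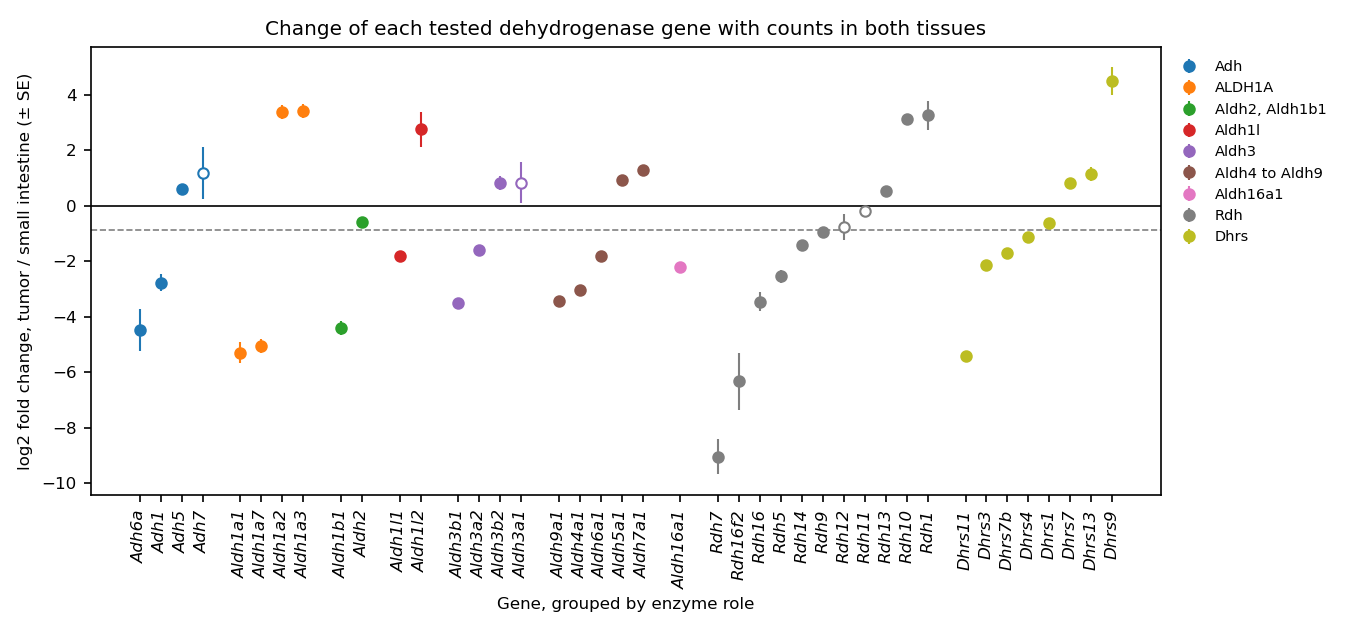
Log2 fold change (tumor over small intestine, vertical axis, ± SE) of the 41 tested members with counts in both tissues, grouped by enzyme role. Filled points passed the edgeR test and open points (Adh7, Aldh3a1, Rdh11, Rdh12) did not. The dashed line marks -0.86, where 0 would lie with library totals, and Aldh2, Dhrs1, Rdh11 and Rdh12 lie between it and 0, so their direction turns with that scaling. Rdh7 lies lowest at -9.05 and Dhrs9 highest at 4.49.

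The tissue labels were set against markers of the cell types that each sample could hold. All 16 enterocyte markers were lower in tumor, where they summed to 1047 to 1535 CPM, against 75346 to 95911 CPM in small intestine, and none was at 0 in either tissue. Of 8 goblet cell markers 5 were lower and none higher, with sums of 787 to 3055 CPM in tumor and 19865 to 34124 CPM in small intestine. Lower too were 4 of 6 Paneth, 7 of 8 enteroendocrine, 4 of 6 tuft and 7 of 8 lymphocyte markers, with 1 Paneth and 1 tuft marker higher. Scaled by library totals, 3 Paneth, 7 enteroendocrine, 2 tuft and 6 lymphocyte markers were lower. The lymphocyte sums overlapped, at 185.7 to 847.5 CPM in tumor and 193.7 to 1072 CPM in small intestine. All 6 tuft markers together summed to 189.9 to 313.2 CPM in tumor and 58.96 to 82.75 CPM in small intestine. The higher tuft marker was Avil, without which the other 5 summed to 11.5 to 26.3 CPM in tumor and 45.9 to 65.6 CPM in small intestine. Avil was left out of this second sum after its values were seen, so the direction of the tuft sum rests on that gene. Of 6 crypt stem cell markers 4 were higher, with sums of 530.4 to 556 CPM in tumor and 114 to 196 CPM in small intestine. All 9 fibroblast markers were higher, with sums of 1238 to 1963 CPM in tumor and 27.2 to 72.9 CPM in small intestine, as were 4 of 6 smooth muscle, 5 of 6 endothelial, 5 of 8 macrophage and dendritic cell markers, with 1 lower, and the 1 tested glial marker. Endothelial markers summed to 178 to 239 CPM in tumor and 12.7 to 28.8 CPM in small intestine. Stomach and esophagus markers, 5 of 6 tested higher, summed to 52.9 to 76.2 CPM in tumor and 0.242 to 0.417 CPM in small intestine, where 2 of the 8 listed were at 0. Of 5 tested liver markers 1, Alb, was higher (141, 141, 138 and 52.4 CPM in tumor, at most 0.0174 CPM in small intestine) and 2 were lower. What part these markers' cells have in the dehydrogenase differences was not tested.

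The 4 ALDH1A genes divided evenly, with 2 lower and 2 higher in tumor. Aldh1a1, Aldh1a2 and Aldh1a3 encode cytosolic enzymes that oxidise retinal to retinoic acid. Aldh1a1 (ENSMUSG00000053279, GRCm38 chr19:20492715-20643465, plus strand) measured 19.2, 12.0, 9.44 and 12.0 CPM in tumor, against 495, 436, 302 and 850.2 CPM in small intestine. Its log2 fold change was -5.30 ± 0.38 (SE, adjusted p = 1.9e-06, edgeR quasi-likelihood test), and no tumor library came near the small intestine range. Aldh1a7 (ENSMUSG00000024747, chr19:20692953-20727562, minus strand), a rodent duplicate of Aldh1a1, lies beside it and measured 3.40, 1.94, 2.36 and 2.05 CPM in tumor, against 72.5, 73.2, 64.8 and 111 CPM in small intestine (log2 fold change -5.04 ± 0.25, adjusted p = 2.56e-07). Both genes had their highest tumor value in library 1 and their highest and lowest small intestine values in libraries 4 and 3.

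In the opposite direction, Aldh1a2 (ENSMUSG00000013584, chr9:71215789-71296243, plus strand), the main retinoic acid-forming enzyme of the early embryo, measured 11.6, 10.8, 9.72 and 10.4 CPM in tumor, against 1.08, 1.18, 0.63 and 1.21 CPM in small intestine. The rise was 3.37 ± 0.24 on the log2 scale (SE, adjusted p = 1.6e-06, edgeR quasi-likelihood test), and the tumor values lay within 2 CPM of each other. Aldh1a3 (ENSMUSG00000015134, chr7:66390890-66427517, minus strand) measured 55.4, 53.5, 41.7 and 40.6 CPM in tumor, against 6.70, 4.44, 3.0 and 3.71 CPM in small intestine (log2 fold change 3.42 ± 0.25, adjusted p = 2.23e-06). Each tumor library exceeded each small intestine library for both genes. The fibroblast and endothelial markers given above rose in the same libraries as Aldh1a2 and Aldh1a3, and their part in these values was not tested.

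The makeup of the group was therefore different in each tissue. Of the summed ALDH1A FPKM, Aldh1a3 took 53.3% ± 3.32 in tumor and 0.481% ± 0.197 in small intestine (SD, n = 4 libraries each). Aldh1a2 took 17.4% ± 1.90 in tumor and 0.162% ± 0.0428 in small intestine. Aldh1a1 took 24.8% ± 3.65 in tumor and 85.6% ± 2.67 in small intestine. The whole group summed to 31.9 ± 6.18 FPKM in tumor and 192 ± 73.6 FPKM in small intestine. Within single libraries, where scaling between tissues plays no part, the FPKM ratio of Aldh1a3 to Aldh1a1 was 1.72 to 2.58 in tumor and 0.00252 to 0.0081 in small intestine. The ratio of Aldh1a7 to Aldh1a1 stayed within overlapping ranges, 0.160 to 0.239 in tumor and 0.127 to 0.209 in small intestine.

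The promoters of Aldh1a1 and Aldh1a7 are shown because the genes moved together, and that of Aldh1a2 because it carries the same octamer and moved the other way. The 120 bases before the RefSeq transcript start are printed 5′ to 3′ on the gene's strand (RefSeq, GRCm38.p6), at chr19:20601848-20601967 (plus), chr19:20727557-20727676 (minus) and chr9:71215669-71215788 (plus), and capitals mark the octamer ATGCAAAT.
Aldh1a1: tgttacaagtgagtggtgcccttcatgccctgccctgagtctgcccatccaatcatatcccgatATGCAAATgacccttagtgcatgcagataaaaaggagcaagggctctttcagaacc
Aldh1a7: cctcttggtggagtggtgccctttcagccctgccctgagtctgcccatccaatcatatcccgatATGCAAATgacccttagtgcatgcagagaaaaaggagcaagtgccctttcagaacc
Aldh1a2: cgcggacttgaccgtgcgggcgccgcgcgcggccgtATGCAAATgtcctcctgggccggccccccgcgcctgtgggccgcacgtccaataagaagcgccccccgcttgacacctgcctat
The octamer starts 56 bases before the start of Aldh1a1 and of Aldh1a7 and 84 bases before that of Aldh1a2. For Aldh1a1 this is the downstream of 2 RefSeq starts, and the window of the upstream start, at chr19:20492333-20492582, holds no octamer. Aldh1a1 and Aldh1a7 were identical at 105 of these 120 bases (87.5%) and at 87 of the last 90 (96.7%), with 1 unbroken identical run of 65 bases. The octamer was 1 of 7 motifs searched on both strands in the 250 bases before the start. It was in 526 of 32851 promoter windows (1.60%) and in 4 of 46 windows of members (8.70%). The remaining match was that of Aldh8a1, which was not tested. Aldh1a1 and Aldh1a7 are near copies close to the start, so their matches are not separate occurrences. RefSeq promoters matched 39 of the 51 members by symbol, some with more than 1 start, and Aldh1a3 was not among them.

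Aldh1a1 and Aldh1a7 are also alike in their coding sequence, at 91.6% of 1503 bases, and 10.4% of the 50-base windows of the coding sequence occur in both. Their first 90 coding bases (GENCODE annotation, GRCm38) are shown because reads from such stretches can be shared by both genes; capitals mark the 5 bases that differ.
Aldh1a1: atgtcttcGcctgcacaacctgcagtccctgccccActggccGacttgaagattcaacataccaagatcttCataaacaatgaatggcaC
Aldh1a7: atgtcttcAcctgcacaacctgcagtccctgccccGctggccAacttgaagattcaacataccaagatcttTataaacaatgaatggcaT
The rule for reads that match several genes is not known, so the split of counts between Aldh1a1 and Aldh1a7 is uncertain.

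**Figure D2:**
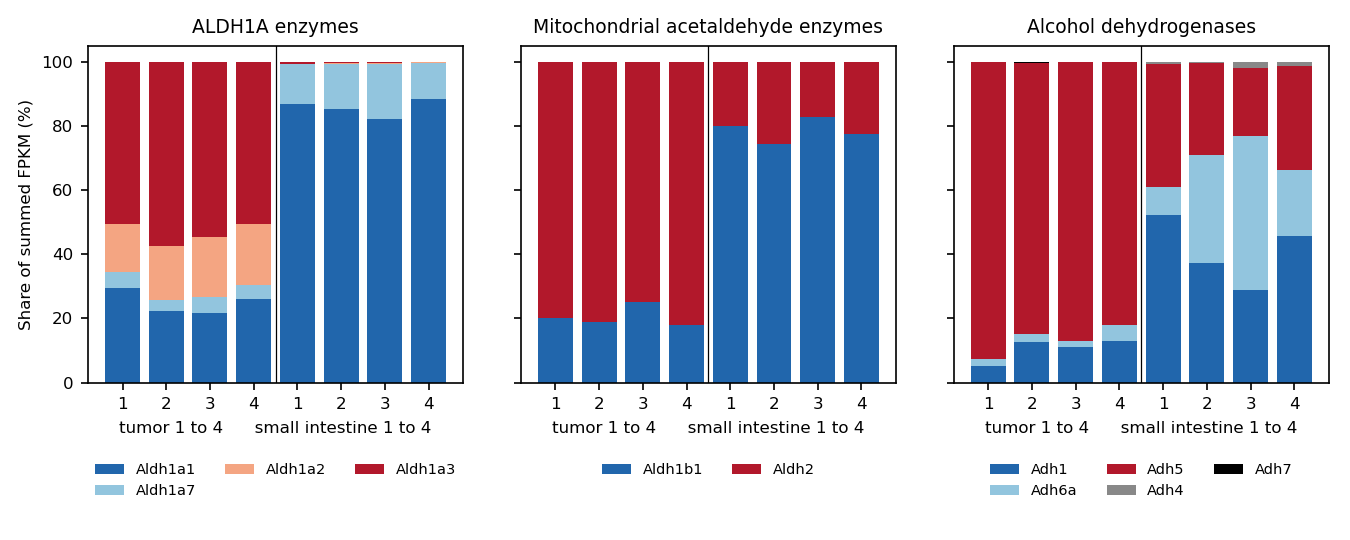
Share of each gene in the summed FPKM of its group (vertical axis, %) in each of the 4 tumor libraries and the 4 small intestine libraries, for the ALDH1A enzymes, the mitochondrial acetaldehyde enzymes and the alcohol dehydrogenases. Aldh1a3, Aldh2 and Adh5 take the largest share in all 4 tumor libraries. In small intestine Aldh1a1 and Aldh1b1 take the largest share in all 4 libraries, while the leading alcohol dehydrogenase differs between libraries.

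Aldh2, the mitochondrial enzyme that clears acetaldehyde after ethanol intake, and its relative Aldh1b1 exchanged their order. Aldh1b1 (ENSMUSG00000035561, chr4:45799022-45804604, plus strand) measured 62.1, 55.6, 79.9 and 40.4 CPM in tumor, against 1099, 1037, 1530 and 1360 CPM in small intestine. It fell by 4.40 on the log2 scale (SE 0.25, adjusted p = 4.44e-07, edgeR quasi-likelihood test), with a wide gap between the tissues. Aldh2 (ENSMUSG00000029455, chr5:121566027-121593824, minus strand) measured 244, 236, 248 and 179 CPM in tumor, against 299, 358, 334 and 382 CPM in small intestine. Its log2 fold change of -0.60 ± 0.13 (adjusted p = 0.00249, edgeR quasi-likelihood test) turned to 0.27 with library totals and to 0.33 in the authors' FPKM, where Aldh2 averaged 105 ± 13.0 in tumor and 83.6 ± 10.0 in small intestine. The FPKM ratio of Aldh1b1 to Aldh2 within a library was 0.217 to 0.334 in tumor and 2.87 to 4.81 in small intestine, ranges that lie far apart. Aldh2 took 79.5% ± 3.17 of the pair's FPKM in tumor and 21.4% ± 3.64 in small intestine.

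The alcohol dehydrogenases lie side by side on chromosome 3, from Adh7 at chr3:138217760-138233382 through Adh1, Adh6a, Adh6b and Adh4 to Adh5 at chr3:138443093-138455499, all on the plus strand. Of the 5 tested, 3 were lower in tumor, 1 was higher and Adh7 passed in neither direction. Adh1 (ENSMUSG00000074207), the class I enzyme that oxidises ethanol and retinol, measured 3.43, 9.48, 7.95 and 10.5 CPM in tumor, against 48.2, 50.5, 57.2 and 59.2 CPM in small intestine (log2 fold change -2.78 ± 0.30, adjusted p = 2.74e-05, edgeR quasi-likelihood test). Tumor library 1 was the lowest, and all 4 tumor libraries were well below the narrow small intestine range. Adh6a (ENSMUSG00000053054) measured 1.39, 2.2, 1.27 and 4.21 CPM in tumor, against 9.36, 51.1, 114 and 30.5 CPM in small intestine. It fell by 4.49 on the log2 scale (SE 0.76, adjusted p = 0.000483, edgeR quasi-likelihood test), and its log2 fold change was -3.74 without small intestine library 3, its highest.

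Adh4 (ENSMUSG00000037797, chr3:138415466-138430892), a class II enzyme active on retinol, had no count in any tumor library and 0.642, 0.460, 3.84 and 1.29 CPM in small intestine. Against a floor of 3 counts per tumor library it was at least 42.7-fold lower in tumor, and small intestine library 3 was again the highest. Without that library the bound is at least 21.9-fold.

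Adh5 (ENSMUSG00000028138), the glutathione-dependent formaldehyde dehydrogenase that most tissues express, measured 83.8, 84.6, 80.7 and 89.0 CPM in tumor, against 49.9, 55.0, 60.7 and 58.0 CPM in small intestine. This was a rise of 0.60 ± 0.09 on the log2 scale (SE, adjusted p = 0.000164, edgeR quasi-likelihood test), smaller than 2-fold but with no overlap between the tissues. Adh5 took 86.5% ± 4.70 of the summed Adh FPKM in tumor and 30.2% ± 7.28 in small intestine, where Adh1 took 41.0% ± 10.1 and Adh6a 27.7% ± 16.9. The sum over the 6 genes was 76.0 ± 7.85 FPKM in tumor and 81.4 ± 28.8 FPKM in small intestine. In FPKM this difference is smaller than the spread between the small intestine libraries. FPKM is not scaled with TMM and raises the median log2 fold change of all genes by 0.80. The comparison of these sums between tissues therefore depends on the scaling. Adh7, the class IV enzyme known from stomach and esophagus, had 0.0110, 0.681, 0.126 and 0.361 CPM in tumor, against 0.104, 0.0354, 0.252 and 0.138 CPM in small intestine (adjusted p = 0.278, edgeR quasi-likelihood test). The tissues overlapped, and its log2 fold change of 1.17 ± 0.93 was 0.36 without tumor library 2.

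The retinol dehydrogenases fell into a lower group, most of it in 1 gene cluster, and a higher group in which Rdh10 had the highest FPKM. Of the 11 tested, 6 were lower, 3 were higher and Rdh11 and Rdh12 passed in neither direction. Rdh10 (ENSMUSG00000025921, chr1:16105774-16133734, plus strand), the enzyme that oxidises retinol to retinal for retinoic acid synthesis in the mouse embryo, measured 196, 186, 180.1 and 154 CPM in tumor, against 19.0, 22.3, 19.1 and 21.2 CPM in small intestine. The rise was 3.13 ± 0.11 on the log2 scale (SE, adjusted p = 4.6e-08, edgeR quasi-likelihood test). Rdh10 took 48.2% ± 3.40 of the summed Rdh FPKM in tumor and 3.96% ± 0.745 in small intestine. The sum itself was 160.2 ± 3.61 FPKM in tumor and 119 ± 18.4 FPKM in small intestine. FPKM is not scaled with TMM and raises the median log2 fold change of all genes by 0.80, so the order of these sums may turn with the scaling. Rdh9, whose level is uncertain for reasons given below, took 24.8% ± 1.85 of the sum in tumor and 37.2% ± 7.1 in small intestine.

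Rdh7 (ENSMUSG00000040134, chr10:127884028-127888817, minus strand), a mouse enzyme that acts on retinol and on steroids, was nearly absent from tumor, with 0.0331, 0.248, 0.0699 and 0.304 CPM in tumor, against 96.2, 36.5, 103 and 119 CPM in small intestine. It fell by 9.05 on the log2 scale (SE 0.63, adjusted p = 1.51e-06, edgeR quasi-likelihood test), with 55 counts over the 4 tumor libraries together and 19375 over the 4 small intestine libraries. Rdh16, of the same cluster, measured 1.06, 0.953, 1.76 and 0.575 CPM in tumor, against 13.0, 10.8, 9.28 and 14.6 CPM in small intestine, and Rdh16f2 had 12 counts in tumor and 701 in small intestine. Both were called lower (log2 fold changes -3.46 ± 0.34 and -6.33 ± 1.02, adjusted p = 1.42e-05 and 0.000355, edgeR quasi-likelihood test), and that of Rdh16f2 was -8.25 without tumor library 2.

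Rdh1 and Rdh9 lie in the same cluster. Rdh1, which oxidises all-trans-retinol in the mouse, measured 6.70, 5.25, 4.18 and 14.7 CPM in tumor, against 0.886, 0.619, 0.378 and 1.33 CPM in small intestine (log2 fold change 3.25 ± 0.51, adjusted p = 0.000308, edgeR quasi-likelihood test). Library 4 was the highest of each tissue. Rdh9 measured 11.2, 11.5, 10.6 and 10.8 CPM in tumor, against 19.4, 22.7, 14.4 and 29.5 CPM in small intestine, a fall of 0.96 ± 0.20 that passed neither in FPKM (-0.13, adjusted p = 0.458, limma) nor with library totals (-0.08, adjusted p = 0.676, edgeR quasi-likelihood test). The cluster's 7 members Rdh1, Rdh7, Rdh9, Rdh16, Rdh16f1, Rdh16f2 and Rdh19 share 84.4% to 98.7% of their coding bases, and Rdh9 also shares 2302 exon bases with the transcripts of Rdh16f1. Values of single genes of this cluster are therefore uncertain. Rdh7, Rdh9, Rdh16 and Rdh16f2 were called lower and their neighbour Rdh1 higher.

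The 250 bases before the RefSeq starts of Adh4, Rdh7 and Rdh16f2 are shown because these members had the deepest falls or no count in tumor (GRCm38.p6, chr3:138415247-138415496 plus, chr10:127889248-127889497 minus and chr10:127866226-127866475 plus). Capitals mark the nuclear receptor half-site AGGTCA, or TGACCT where it lies on the other strand. Of the 2 RefSeq starts of Rdh7 the upstream is shown, the one whose window holds the half-site. That window lies outside the Rdh7 gene span given above. The window of the other start, at chr10:127888734-127888983, reaches that span and holds no half-site. For Adh4, the match nearest the RefSeq start lies within the gene span given above.
Adh4: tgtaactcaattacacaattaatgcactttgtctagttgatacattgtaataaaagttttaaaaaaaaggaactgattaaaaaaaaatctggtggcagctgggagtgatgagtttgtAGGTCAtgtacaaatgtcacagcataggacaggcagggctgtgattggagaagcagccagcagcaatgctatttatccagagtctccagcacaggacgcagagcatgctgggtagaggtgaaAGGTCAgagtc
Rdh7: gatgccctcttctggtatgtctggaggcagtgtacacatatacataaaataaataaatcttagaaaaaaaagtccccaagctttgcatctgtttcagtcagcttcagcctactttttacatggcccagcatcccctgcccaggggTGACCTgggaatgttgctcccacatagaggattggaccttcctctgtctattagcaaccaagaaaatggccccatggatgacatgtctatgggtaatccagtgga
Rdh16f2: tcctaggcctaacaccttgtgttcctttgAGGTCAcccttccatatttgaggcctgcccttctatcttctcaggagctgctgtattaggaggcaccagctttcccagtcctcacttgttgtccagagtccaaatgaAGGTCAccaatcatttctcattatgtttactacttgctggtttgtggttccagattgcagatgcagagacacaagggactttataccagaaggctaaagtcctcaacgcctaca
The half-site starts 133 and 11 bases before the start of Adh4, 105 bases before that of Rdh7 and 221 and 114 bases before that of Rdh16f2. It was in 14.0% of all 32851 promoter windows and in 10 of the 46 windows of members (21.7%), of which 8 belong to members that were lower and 1, Dhrs9, to a member that was higher. The windows comprise 29 of lower and 8 of higher members. The TATA box (TATAAA) was in 17.4% of member windows and 12.4% of all, and the HNF1 half-site (GTTAAT) in 8.70% and 6.43%. The TCF/LEF motif (CTTTGAT) was in 2.17% and 3.21%, and the CDX motif (TTTATG) in 2.17% and 10.8%. The HNF4A motif (CAAAGTCCA) was in no member window and in 0.384% of all. Matches of such short letters are a description of the sequence, and the motifs were chosen after the values were seen.

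Outside the cluster, Rdh5, the 11-cis-retinol dehydrogenase of the retina, was below 5 CPM in both tissues and called lower (log2 fold change -2.54). It overlaps Bloc1s1 by 720 exon bases on the same strand, and in the authors' FPKM it did not pass (-0.14, adjusted p = 0.368, limma). Rdh14, a retinal reductase, measured 12.0, 13.1, 13.3 and 13.1 CPM in tumor, against 31.2, 31.8, 32.2 and 40.9 CPM in small intestine, and was called lower without overlap. Rdh13, a mitochondrial member of the family, measured 24.2, 24.2, 25.0 and 25.2 CPM in tumor, against 16.2, 14.4, 21.4 and 16.0 CPM in small intestine and was called higher. Rdh11, a retinal reductase of the endoplasmic reticulum, measured 34.2, 30.5, 33.8 and 33.1 CPM in tumor, against 31.1, 35.4, 39.9 and 44.4 CPM in small intestine. The tissues overlapped for Rdh11 and its log2 fold change of -0.20 ± 0.12 turned to 0.67 with library totals, where it was called higher (adjusted p = 0.000175, edgeR quasi-likelihood test), as it was in FPKM.

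Among the Dhrs genes, relatives of the retinol dehydrogenases with varied substrates, 5 of 8 tested were lower and 3 higher. Dhrs11 (ENSMUSG00000034449, chr11:84820856-84828994, minus strand), a reductase of steroids and other carbonyl compounds, measured 12.3, 14.1, 14.6 and 11.3 CPM in tumor, against 506, 573, 568 and 580.1 CPM in small intestine. It fell by 5.41 on the log2 scale (SE 0.13, adjusted p = 1.6e-08, edgeR quasi-likelihood test), with little spread within either tissue. Its share of the summed Dhrs FPKM was 6.31% ± 0.592 in tumor and 62.4% ± 3.63 in small intestine. Dhrs9 (ENSMUSG00000027068, chr2:69380445-69404533, plus strand), a retinol and steroid dehydrogenase, measured 30.5, 26.1, 32.0 and 8.49 CPM in tumor, against 0.504, 1.03, 1.43 and 1.36 CPM in small intestine (log2 fold change 4.49 ± 0.49, adjusted p = 2.61e-05, edgeR quasi-likelihood test). Tumor library 4 was the lowest of its tissue for Dhrs9, though still above all 4 small intestine libraries, and it also held the lowest tumor sum for 8 of the 14 marker lists, those of enterocytes, goblet cells and fibroblasts among them. The part of these cells in the Dhrs9 values was not tested.

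Dhrs3, which reduces retinal to retinol and so works against Rdh10, measured 17.2, 14.1, 15.2 and 19.9 CPM in tumor, against 71.0, 68.2, 75.5 and 78.5 CPM in small intestine (log2 fold change -2.14 ± 0.12, adjusted p = 4.44e-07, edgeR quasi-likelihood test). Within a library, the FPKM ratio of Rdh10 to Dhrs3 was 4.67 to 7.73 in tumor and 0.139 to 0.171 in small intestine, so Rdh10 was the more abundant of the 2 genes in every tumor library and Dhrs3 in every small intestine library. Dhrs7b, an enzyme of ether lipid synthesis, measured 26.4, 26.0, 32.5 and 24.7 CPM in tumor, against 72.1, 92.9, 90.3 and 107 CPM in small intestine. Dhrs4, a carbonyl and retinal reductase of peroxisomes, measured 40.9, 38.1, 37.7 and 35.4 CPM in tumor, against 74.8, 62.0, 93.9 and 105 CPM in small intestine. Both were called lower without overlap, but Dhrs4 (-1.14) no longer passed with library totals (-0.27, adjusted p = 0.111, edgeR quasi-likelihood test). Dhrs1 measured 40.0, 38.4, 47.4 and 31.1 CPM in tumor, against 46.6, 52.6, 75.8 and 66.2 CPM in small intestine, with overlap between the tissues, and its fall of 0.62 turned to 0.24 with library totals.

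The other Dhrs genes that rose did so by less. Dhrs7, a short-chain reductase of the endoplasmic reticulum, measured 49.3, 48.4, 45.0 and 39.4 CPM in tumor, against 20.5, 23.9, 33.4 and 26.6 CPM in small intestine. Dhrs13 measured 6.19, 6.09, 4.93 and 7.23 CPM in tumor, against 2.38, 2.26, 4.22 and 2.35 CPM in small intestine. Both passed without overlap, at log2 fold changes of 0.80 and 1.13. Dhrs13 overlaps its antisense partner Dhrs13os by 386 exon bases, and without a known strand setting their reads cannot be told apart.

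**Figure D3:**
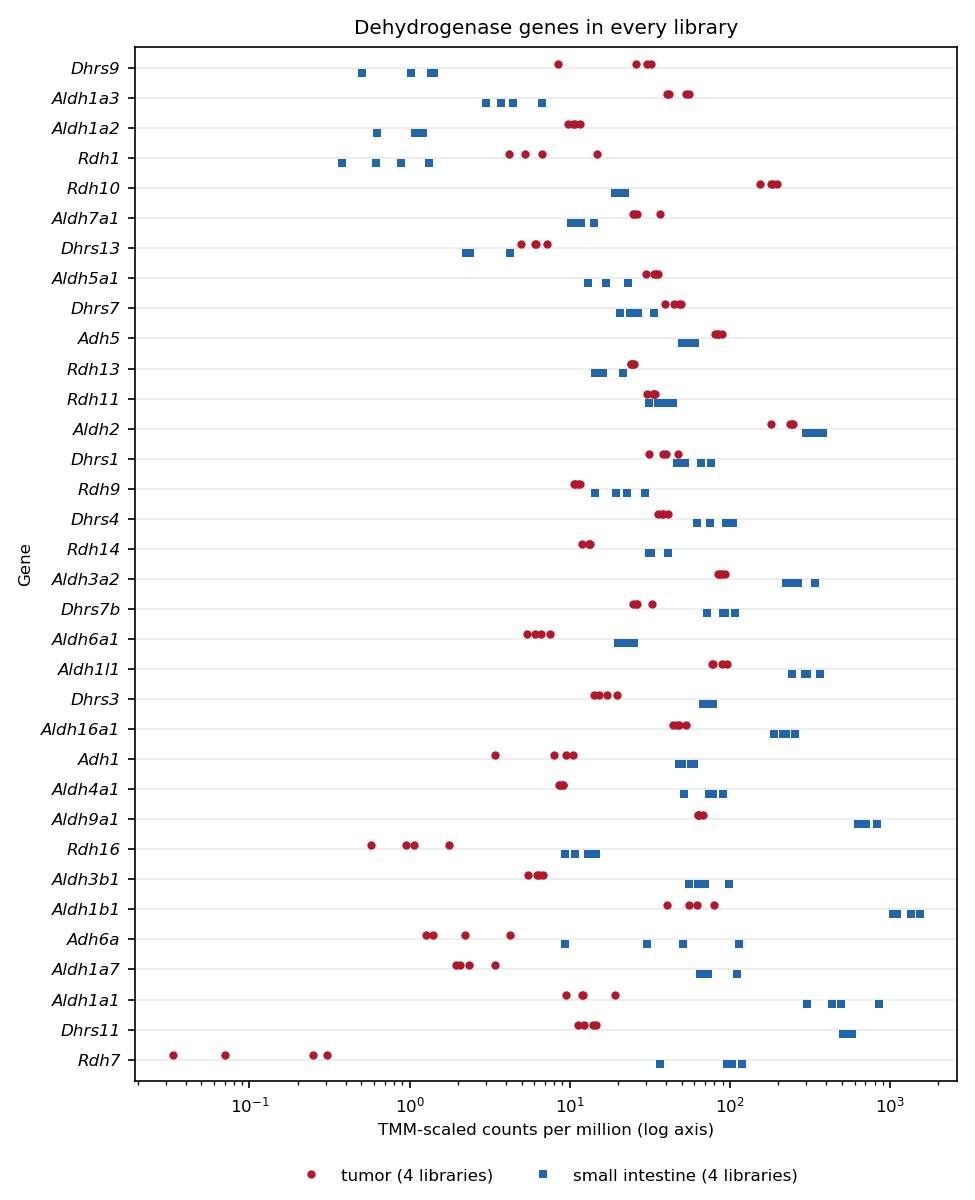
TMM-scaled CPM (horizontal log axis) of the 34 tested members with a mean of at least 5 CPM in either tissue, ordered by fold change, with 1 point per library, tumor as circles and small intestine as squares. Rdh7, Dhrs11, Aldh1a1 and Aldh1a7 stand at the bottom and Dhrs9, Aldh1a3, Aldh1a2, Rdh1 and Rdh10 at the top. Rdh11 and Dhrs1 overlap.

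Among the aldehyde dehydrogenases of amino acid and amine breakdown, 3 of 5 tested were lower and 2 higher. Aldh9a1 (ENSMUSG00000026687, chr1:167349991-167368532, plus strand), which makes the precursor of carnitine, measured 68.2, 64.5, 63.6 and 63.3 CPM in tumor, against 629, 674, 711 and 827 CPM in small intestine. It fell by 3.45 on the log2 scale (SE 0.12, adjusted p = 4.39e-08, edgeR quasi-likelihood test), and the 4 tumor libraries were nearly equal. Aldh4a1, the second enzyme of proline breakdown, measured 8.58, 8.73, 9.10 and 9.08 CPM in tumor, against 51.4, 78.0, 90.1 and 74.2 CPM in small intestine. Aldh6a1, an enzyme of valine breakdown, measured 6.61, 5.40, 7.47 and 6.08 CPM in tumor, against 21.7, 20.1, 25.4 and 22.8 CPM in small intestine. Both were lower without overlap, at log2 fold changes of -3.05 and -1.82. Aldh5a1, which oxidises succinic semialdehyde from GABA, measured 35.3, 34.7, 29.8 and 33.6 CPM in tumor, against 13.1, 16.8, 23.0 and 16.8 CPM in small intestine. Aldh7a1, an enzyme of lysine breakdown, measured 26.3, 25.3, 24.8 and 36.8 CPM in tumor, against 11.7, 10.2, 10.8 and 14.2 CPM in small intestine. Aldh5a1 and Aldh7a1 were higher without overlap, at log2 fold changes of 0.94 and 1.27. Aldh4a1 overlaps the protein-coding Gm21969 by 1595 exon bases on the same strand, while Aldh6a1, Aldh5a1 and Aldh7a1 overlap other transcripts on the opposite strand.

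Of the ALDH3 enzymes of fatty and aromatic aldehydes, 2 of 4 tested were lower and 1 was higher. Aldh3a2, the fatty aldehyde dehydrogenase, took most of the group's FPKM in both tissues and measured 93.0, 86.1, 89.5 and 83.8 CPM in tumor, against 266, 223, 245 and 339 CPM in small intestine (log2 fold change -1.61). Aldh3b1, which also oxidises fatty and lipid-derived aldehydes, measured 6.47, 6.25, 5.46 and 6.76 CPM in tumor, against 55.1, 99.2, 69.8 and 62.8 CPM in small intestine (log2 fold change -3.52). Neither gene's tissues overlapped. Aldh3b2 was called higher at low levels (723 counts in tumor, 275 in small intestine) and shares 90.6% of its coding bases with Aldh3b3, which was not tested. Aldh3a1, a corneal and stomach enzyme, had 0.927, 1.19, 1.68 and 0.891 CPM in tumor, against 1.22, 1.17, 0.168 and 0.0690 CPM in small intestine and passed in neither direction. The stomach and esophagus markers above were higher in the tumor libraries. Adh7 and Aldh3a1, both known from those organs, were not called. Their estimates were positive with wide errors (log2 fold changes 1.17 ± 0.93 and 0.83 ± 0.74) on few counts, and Aldh3a1 passed in FPKM with no filter. A link to the markers was not tested.

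The pair of 10-formyltetrahydrofolate dehydrogenases moved apart. Aldh1l1, the cytosolic form, measured 95.8, 76.7, 78.1 and 88.7 CPM in tumor, against 243, 366, 303 and 296 CPM in small intestine (log2 fold change -1.83 ± 0.14, adjusted p = 2.85e-06, edgeR quasi-likelihood test). Aldh1l2, the mitochondrial form, measured 3.90, 4.21, 3.40 and 3.64 CPM in tumor, against 0.747, 0.389, 1.07 and 0.0518 CPM in small intestine (log2 fold change 2.75 ± 0.63, adjusted p = 0.0032, edgeR quasi-likelihood test). Neither overlapped, and the FPKM ratio of Aldh1l1 to Aldh1l2 was 43.5 to 57.5 in tumor and 382 to 1620 in small intestine, so the cytosolic form was the more abundant in all 8 libraries. Aldh1l2 overlaps D10Wsu102e, a gene with more counts in tumor, by 1056 exon bases on the opposite strand, and reads of that stretch cannot be told apart. Aldh16a1, a member of the family with no firmly assigned substrate, measured 47.0, 48.4, 53.2 and 44.0 CPM in tumor, against 188, 216, 256 and 224 CPM in small intestine and was called lower (log2 fold change -2.20).

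The other genes of retinoid handling, from lists of pathway partners, were described beside the members. Of 13 tested genes of retinoid uptake, storage and binding, 8 were lower and 4 higher, with a median log2 fold change of -2.75. Lrat, which esterifies retinol for storage, had a log2 fold change of -6.52 ± 0.40, Bco1, which cleaves carotene to retinal, -5.21 ± 0.73 and Dgat1, which also esterifies retinol, -5.19 ± 0.16. Stra6, a cell surface receptor for retinol bound to its plasma carrier, was higher by 5.67 ± 0.66, with 360.2, 390.2, 363 and 241 CPM in tumor, against 7.94, 14.2, 2.81 and 1.66 CPM in small intestine. Without small intestine library 4 the log2 fold change of Bco1 was -4.39, and without small intestine library 2 that of Stra6 was 6.35.

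Retinoic acid receptors divided, with 2 of 5 tested higher and 3 lower, or 3 higher and 1 lower with library totals, where Rxrb turned from lower (-0.36) to higher (0.50). Rarb measured 24.8, 30.9, 31.0 and 25.7 CPM in tumor, against 0.677, 0.672, 0.231 and 0.414 CPM in small intestine (log2 fold change 5.80 ± 0.31, adjusted p = 3.54e-07, edgeR quasi-likelihood test). Rarg rose by 2.27 ± 0.20, while Rxra and Rara had log2 fold changes of -2.64 and -1.16, the last of which no longer passed with library totals (-0.29). Of the 2 tested enzymes that break retinoic acid down, Cyp26a1 was called higher. It had 566 counts in tumor and 6 in small intestine, all 6 in library 1. Its log2 fold change was 5.86 ± 0.92 and 9.89 without that library. Cyp26b1 had a log2 fold change of 0.84 ± 0.43 and passed in neither direction. Retinoic acid was not measured, and what part it has in these values was not tested.

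**Figure D4:**
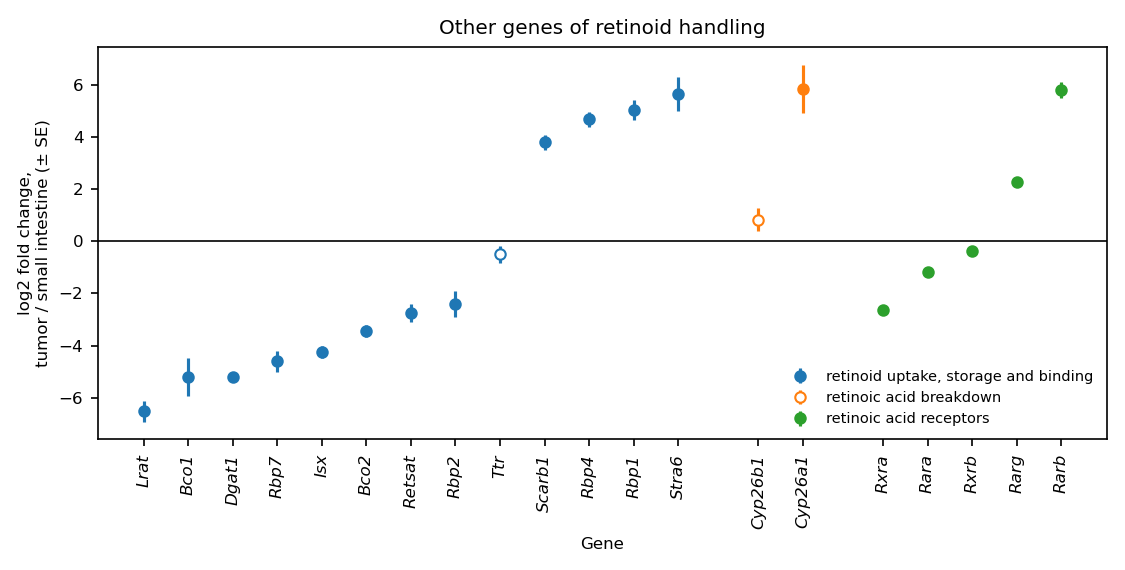
Log2 fold change (tumor over small intestine, vertical axis, ± SE) of the tested genes of retinoid uptake, storage and binding, of retinoic acid breakdown and of the retinoic acid receptors. Filled points passed the edgeR test and open points, Ttr and Cyp26b1, did not, and Ttr (-0.50) and Rxrb (-0.36) lie above 0 with library totals. Lrat lies lowest at -6.52 and Cyp26a1 (5.86), Rarb (5.80) and Stra6 (5.67) lie highest.

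Among 16 other enzymes of ethanol, aldehydes and carbonyl compounds, 9 were lower and 6 higher, with a median log2 fold change of -1.37. The aldehyde reductase Akr1b7 fell by 8.75 (SE 0.19) and catalase (Cat), which can also oxidise ethanol, fell by 3.27 (SE 0.20). Cbr2, a carbonyl reductase, had 1008 counts in tumor and 3 in small intestine, a ratio of 223 per scaled read total (95% exact binomial interval 76.0 to 1081, counting error only). The aldehyde oxidase Aox1, which can form retinoic acid, rose by 4.46 (SE 0.74), or by 5.93 without small intestine library 1. Of 19 other short-chain dehydrogenases 15 were lower and 1 higher, with a median of -1.63, or 11 lower and 4 higher with library totals. The prostaglandin-degrading Hpgd fell by 6.14 (SE 0.27), Hsd17b6 by 5.25, Hsd17b13 by 4.71 and Hsd17b2 by 2.97, while Hsd11b1, which activates glucocorticoids, rose by 2.84 (SE 0.41).

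Pathway partners of the amino acid enzymes were mixed, with 3 of 9 tested higher, 4 lower and a median of -0.18, or 6 higher and 3 lower with library totals. Abat, which makes the substrate of Aldh5a1 from GABA, fell by 6.29 (SE 0.26). Prodh, the step before Aldh4a1 in proline breakdown, fell by 1.96 and Oat by 2.08, while Pycr1, which runs the opposite way to proline, rose by 4.04 (SE 0.20). Of the 8 tetrahydrofolate enzymes 7 were higher, with a median of 0.99. Mthfd1l (2.36 ± 0.13), Shmt2 (1.62 ± 0.23), Shmt1 (1.47 ± 0.16) and Mthfd1 (1.03 ± 0.17) were among those that rose. Mtfmt alone was called lower (-0.86), and its log2 fold change was 0.01 with library totals.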

How the data were processed

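Polyadenylated RNA of 4 tumor and 4 small intestine libraries was measured. The authors deposited whole-number read counts per gene, used without change, and FPKM values, in which the authors divided by gene length and library size. The submitters' processing notes name the build GRCm38 and the tools STAR, HTSeq 0.6.0, Cufflinks 2.2.1 and FastQC. Their parameters, the strand setting and the handling of reads shared by several genes are not known. Without molecular identifiers, floors and intervals include only counting error.

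Counts were tested in R 4.3.3 with edgeR 4.0.16 (glmQLFit and glmQLFTest, TMM, filterByExpr, tissue as the only term), with Benjamini-Hochberg adjustment over all genes and 0.05 as the threshold. For FPKM, limma-trend (limma 3.58.1) was run on log2(FPKM + 1) at a mean of at least 1 FPKM, which understates the change of low genes. Means are given ± SD over 4 libraries. Symbols, gene spans and coding sequences come from GENCODE M21 (GRCm38), matched by Ensembl identifier, and promoters from RefSeq (GRCm38.p6), matched by symbol. Overlap counts exon bases.

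Alternatives were DESeq2 1.42.0 size factors, library totals, TMM leaving out the 50 most abundant genes, a low-count filter of 1 CPM on average or none, the DESeq2 Wald test, a minimum fold of 2, FPKM (pseudocount 1 or 0.1, or unfiltered), a replicate block and leaving out 1 library at a time. The count test was first run on simulated counts in which few genes were changed, as many up as down. Most genes were called in the real data, so that run does not check the scaling between the tissues. All members could be named, those of at least 5 CPM in either tissue with every library. From other lists, up to 4 called genes with the largest change and the largest in the minority direction were named. The naming rule uses no value, but these gene families and lists were chosen with earlier results of these data known.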

Additional observations from a re-analysis of the deposited data

Results flagged for a closer look

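Within each tissue, the highest and lowest of the 4 libraries were compared with the rest by Dixon's test, for each tested member with a nonzero range. Of 83 such groups 6 had a library set apart, and chance sets apart about 1 group in 20. Aldh7a1 was high in tumor library 4, at 36.8 CPM, while the other tumor libraries had 24.8 to 26.3 CPM. Rdh16f2 was high in tumor library 2, at 0.124 CPM against 0 to 0.0140 CPM. Rdh14 was low in tumor library 1, at 12.0 CPM against 13.1 to 13.3 CPM, and high in small intestine library 4, at 40.9 CPM against 31.2 to 32.2 CPM. Dhrs11 was low in small intestine library 1, at 506 CPM against 568 to 580.1 CPM. Dhrs13 was high in small intestine library 3, at 4.22 CPM against 2.26 to 2.38 CPM.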

How the results depend on the processing

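The 13 higher and 25 lower members were unchanged in number with DESeq2 size factors, without the 50 most abundant genes and with the replicate block (13 and 25). A test against a minimum fold of 2 (edgeR's glmTreat), stricter than an estimate of at least 2-fold, left 7 higher and 21 lower. Leaving out 1 library gave 13 to 13 higher and 25 to 26 lower members, Rdh11 being called without small intestine library 1 (-0.29, adjusted p = 0.0314, edgeR). Over all genes 6619 were higher and 6030 lower, and leaving out 1 library gave 6410 to 6814 and 5629 to 6103. These were 10564 and 2996 with library totals, 3753 and 2979 in the test against a minimum fold, and 11174 and 3007 in FPKM with no filter. FPKM with a pseudocount of 1 or 0.1 called 2326 or 2328 genes lower. Among the members and the named list genes, directions turned for Aldh2 (0.27 with library totals, 0.33 in all FPKM settings), Dhrs1 (0.24, 0.08), Rdh11 (0.67, and 0.63, 0.69 and 0.63 in FPKM with a pseudocount of 1, of 0.1 and with no filter), Rdh12 (0.08, and 0.03 in FPKM with no filter) and Mtfmt (0.01, and 0.09, 0.10 and 0.09). With library totals 11 of the 72 tested pathway genes turned, 5 of them called lower before (Rxrb, Hsd17b7, Sdr39u1, Bckdha and Mtfmt). Library totals and FPKM raise the median log2 fold change of all genes by 0.86 and 0.80, and Rdh9, Rdh5 and Dhrs4 lose their calls in FPKM, Rdh9 (-0.08) and Dhrs4 (-0.27) also with library totals. The cause was not tested. Deviations from the tissue mean had correlations of -0.159 to 0.0136 between same-numbered tumor and small intestine libraries. Samples of 1 animal need not share such deviations, so whether the numbers pair the samples is not known. With the replicate block 6301 genes were higher and 5592 lower, with the call of each tested member as before. Aldh3a1 passed in FPKM with no filter (0.54, adjusted p = 0.012, limma). Pathway and marker lists gave 24 to 25 and 34 to 38 higher and 40 to 42 and 44 to 47 lower genes with 1 library left out. Members with few counts, such as Adh4, Adh7 and Rdh16f2, are limited by depth.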

Other observations

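Library 4 of the small intestine held the highest value of its tissue for 21 of the 42 tested members, against 27.5% of all genes tested, and library 1 the lowest for 19, against 25.6% of all genes tested. The members differ in this: 15 were highest in library 3, 4 in library 2 and 2 in library 1, against 27.9%, 22.0% and 22.6% of all genes tested. Adh4, Adh5, Adh6a, Adh7, Aldh1b1, Aldh1l2 and Aldh16a1 were among those highest in library 3, and Aldh1l1 among those highest in library 2. Over the 34 members with at least 5 CPM in either tissue, the median ratio of a small intestine library to the mean of the other 3 was 0.864 for library 1, 0.921 for library 2, 1.03 for library 3 and 1.14 for library 4. In tumor these median ratios were closer to each other, at 1.05, 0.993, 0.987 and 0.969 for libraries 1 to 4. The differences between tissues reported above for Aldh1b1, Dhrs11, Rdh7 and Aldh1a1 are many times larger than these ratios.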
